A study of Rattus norvegicus with 12 samples.

Results

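Collagen chain genes encode the subunits of the collagens, the main proteins of bone matrix and of the scar and granulation tissue that fill a wound. The members were all non-control probes on the array whose gene name has the form Col, a number, the letter a and a number. They make up 44 of the 34912 gene names on the array, and for each the brightest probe stood for the gene. All 44 names were found in a RefSeq gene table of assembly GRCr8. Of these genes, 41 had signal well above background on 4 or more of the 12 arrays and were tested. Col9a1 and Col10a1 were above background on 3 arrays each and Col28a1 on none, so these were not tested.

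The tissue was rat calvaria, which is skull roof bone, sampled 72 h after surgery in animals aged 10 weeks, with 4 one-colour Agilent arrays in each of 3 groups. In the laser group a defect of 8 by 3 mm had been ablated by an Er:YAG laser, whose infrared pulses vaporise mineralised tissue, run at 20 Hz with 127 mJ per pulse at the tip. In the bur group a defect of the same size had been cut with a rotating bur. Control bone was not ablated, and the treatment protocol says that its periosteum was taken off, while the series design calls it non-treated. No label gives a strain or genotype, or says that each array had its own animal, so the p-values rest on a spread between arrays that may be technical.

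A collagen molecule is a triple helix of 3 chains, each built from a repeat of glycine and a further pair of residues. Fibrillar collagens (types I, II, III, V, XI, XXIV and XXVII) polymerise into fibrils, type I being the bulk of bone matrix, type III an early wound collagen, and types V and XI the regulators that set fibril diameter. FACIT collagens such as types IX and XII sit on fibril surfaces, network collagens such as types IV and VIII form sheets in basement membranes, and transmembrane collagens are anchored in the cell surface. Type VI forms beaded microfilaments around cells and, with types VII, XV, XVIII, XXVI and XXVIII, belongs to none of these 4 classes.

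The glycine repeat can be read in some of the probes that the arrays carry. A probe was taken to carry it where GGN, the codons of glycine, stood every 9 bases along its whole length, with at least 6 such codons, in the orientation printed in the files. This held for 6 of the 81 probes of collagen chain genes (7.41%) and for 2 of the 45517 other probes (0.00439%). A probe of Col11a2 (A_44_P1115707, rn4, chr20:4936632-4936946, minus strand), one of Col4a6 (A_64_P390391, rn4, chrX:37482127-37482186, plus strand) and one of Col23a1 (A_44_P1147698, rn4, chr10:37064934-37067076, plus strand) are printed with the GGN codons in capitals. Of the printed probes only that of Col4a6 stands for its gene in the values below. The Col11a2 probe was kept but is not the brightest of its gene, and the Col23a1 probe was not kept. The positions are those in the files, and stretches longer than the probe span more than the probe itself.
Col11a2: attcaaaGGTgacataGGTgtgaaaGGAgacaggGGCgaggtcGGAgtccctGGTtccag
Col4a6: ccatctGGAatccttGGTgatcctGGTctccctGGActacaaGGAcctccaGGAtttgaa
Col23a1: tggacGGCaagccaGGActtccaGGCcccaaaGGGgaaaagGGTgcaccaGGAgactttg

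RefSeq promoter windows of assembly GRCr8, from 250 bases before to 50 after the start of each gene, were found for 35 of the 44 members. Col4a1 and Col4a2, the chains of the most widespread type IV collagen, lie head to head, and their windows overlap by 176 bases. Those of Col4a3 and Col4a4 overlap by 88 bases. Windows are printed for Col4a1 (chr16:84885347-84885646, plus strand), which holds part of the Col4a2 window, and for 2 genes that passed the test in opposite directions in both comparisons with control, Col5a3 (chr8:27625899-27626198, minus strand) and Col9a2 (chr5:139892548-139892847, plus strand). Capitals mark 3 core promoter motifs on either strand, and no 2 of these overlap in the printed windows. One is CCAAT. Another, known as the GC box, is GGGCGG. The last, of the TATA box, is TATAA.
Col4a1: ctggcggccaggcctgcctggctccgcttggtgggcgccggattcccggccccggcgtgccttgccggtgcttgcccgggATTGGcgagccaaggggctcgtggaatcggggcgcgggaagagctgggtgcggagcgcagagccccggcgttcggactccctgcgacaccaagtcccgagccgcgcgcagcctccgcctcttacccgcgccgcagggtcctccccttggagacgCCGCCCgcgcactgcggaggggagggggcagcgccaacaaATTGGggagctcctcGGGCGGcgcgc
Col5a3: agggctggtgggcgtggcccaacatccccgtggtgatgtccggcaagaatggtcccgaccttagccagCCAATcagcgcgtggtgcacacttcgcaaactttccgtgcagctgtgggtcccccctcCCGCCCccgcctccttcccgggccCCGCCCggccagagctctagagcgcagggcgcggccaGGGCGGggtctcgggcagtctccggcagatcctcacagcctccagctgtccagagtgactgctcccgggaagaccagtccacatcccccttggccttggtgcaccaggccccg
Col9a2: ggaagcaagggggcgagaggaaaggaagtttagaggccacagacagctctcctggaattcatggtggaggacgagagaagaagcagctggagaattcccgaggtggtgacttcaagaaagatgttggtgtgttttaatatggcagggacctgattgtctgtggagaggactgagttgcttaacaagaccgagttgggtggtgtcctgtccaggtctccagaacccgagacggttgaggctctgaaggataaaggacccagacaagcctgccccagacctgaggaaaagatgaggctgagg
The Col5a3 window held 1 CCAAT and 3 GGGCGG, the Col4a1 window 2 of each, and the Col9a2 window neither, and none of them held TATAA. The GC box was present in 19 of the 35 member windows (54.3%) and in 34.9% of all 27457 windows, CCAAT in 31.4% of member windows and 37.7% of all, and TATAA in 20.0% of member windows and 26.1% of all.

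Every value below is the log2 signal of a gene's probe relative to the 75th percentile of its array, so that 0 is the brightness of that percentile, and levels are not set against each other between genes. The share of probes well above background was 58.1% to 67.0% per array, and the number of arrays limits the precision. Pairwise correlation within a group was 0.975 to 0.984 for laser, 0.979 to 0.983 for bur and 0.948 to 0.980 for control. All laser and bur arrays were on 1 slide, in separate columns, and all control arrays on another that was scanned apart. For laser or bur against control, the group cannot be told apart from the slide and its scan, nor, for laser against bur, from the slide column. The tissue label was checked against bone markers: Bglap, the osteocalcin gene, had group means of 8.12 for laser, 7.89 for bur and 7.97 for control, and Ibsp, the bone sialoprotein gene, 2.67 for laser, 2.22 for bur and 1.99 for control. In bulk tissue, fewer cells of a type and less RNA per cell cannot be told apart.

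In laser-ablated bone 6 collagen chain genes rose and 3 fell relative to control bone, and 32 did not pass the test (limma over all 22718 genes, Benjamini-Hochberg adjusted p under 0.05). Those that rose were the fibril-diameter regulators Col5a3, Col11a1 and Col11a2, the type VI chains Col6a1 and Col6a2, and the transmembrane Col23a1. Col23a1 was above background on no control array. Only ablated arrays brought it past the filter, so its calls in laser and bur are no support for a rise. Those that fell were the FACIT genes Col9a2 and Col19a1 and the type VI chain Col6a5. Across all genes tested 9.26% rose and 13.0% fell, and across the 41 collagens 14.6% rose and 7.32% fell. All laser arrays lay above all controls for 4 collagens and below them for 3, where 8.87% and 10.1% of all genes did so. The 14.6% that rose and the 4 above all controls count Col23a1, so both would be lower without it. The median difference was 0.74 for the collagens and 0.017 for all genes, 33 of the 41 were positive against 51.3% of all genes, and 19 of the 41 had an unadjusted p under 0.05 against 38.9% of all genes. With normexp background correction the median was 0.30 for the collagens and -0.084 for all genes, and 27 of the 41 were positive.

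In bur-drilled bone 3 collagen chain genes rose, Col5a3, Col6a1 and Col23a1, and the same genes as in laser-ablated bone fell, Col9a2, Col19a1 and Col6a5. Across all genes tested 9.99% rose and 16.2% fell in this comparison, and 7.32% of the collagens rose and 7.32% fell. All bur arrays lay above all controls for 3 collagens and below them for 3, where 9.60% and 15.7% of all genes did so. The 7.32% that rose and the 3 above all controls count Col23a1, so both would be lower without it. The median difference was 0.46 for the 41 collagens and -0.0001 for all genes. With normexp it was 0.025 for the collagens, of which 22 were positive, and -0.24 for all genes. Both comparisons use the same 4 control arrays, so their calls are not independent of each other. The counts rested on single arrays: without control replicate 3, 20 collagens rose in laser and 16 in bur, and without control replicate 1, 1 rose in each. The number that rose in laser was also 1 without laser replicate 2, 0 without laser replicate 3, 3 without laser replicate 4 and 2 without control replicate 4. In bur the number that rose was 0 without bur replicate 1 or bur replicate 4, and 1 without bur replicate 3, control replicate 2 or control replicate 4. The number that fell was 1 to 3 in laser, the 1 being without control replicate 1, and 2 to 4 in bur. The counts over all genes moved the same way in the largest of these shifts: 2103 genes rose in laser with all arrays, 3861 without control replicate 3, 449 when control replicate 1 was left out and 529 when laser replicate 3 was, and 2270 rose in bur with all arrays, 3794 without control replicate 3 and 878 without control replicate 1.

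**Figure D1:**
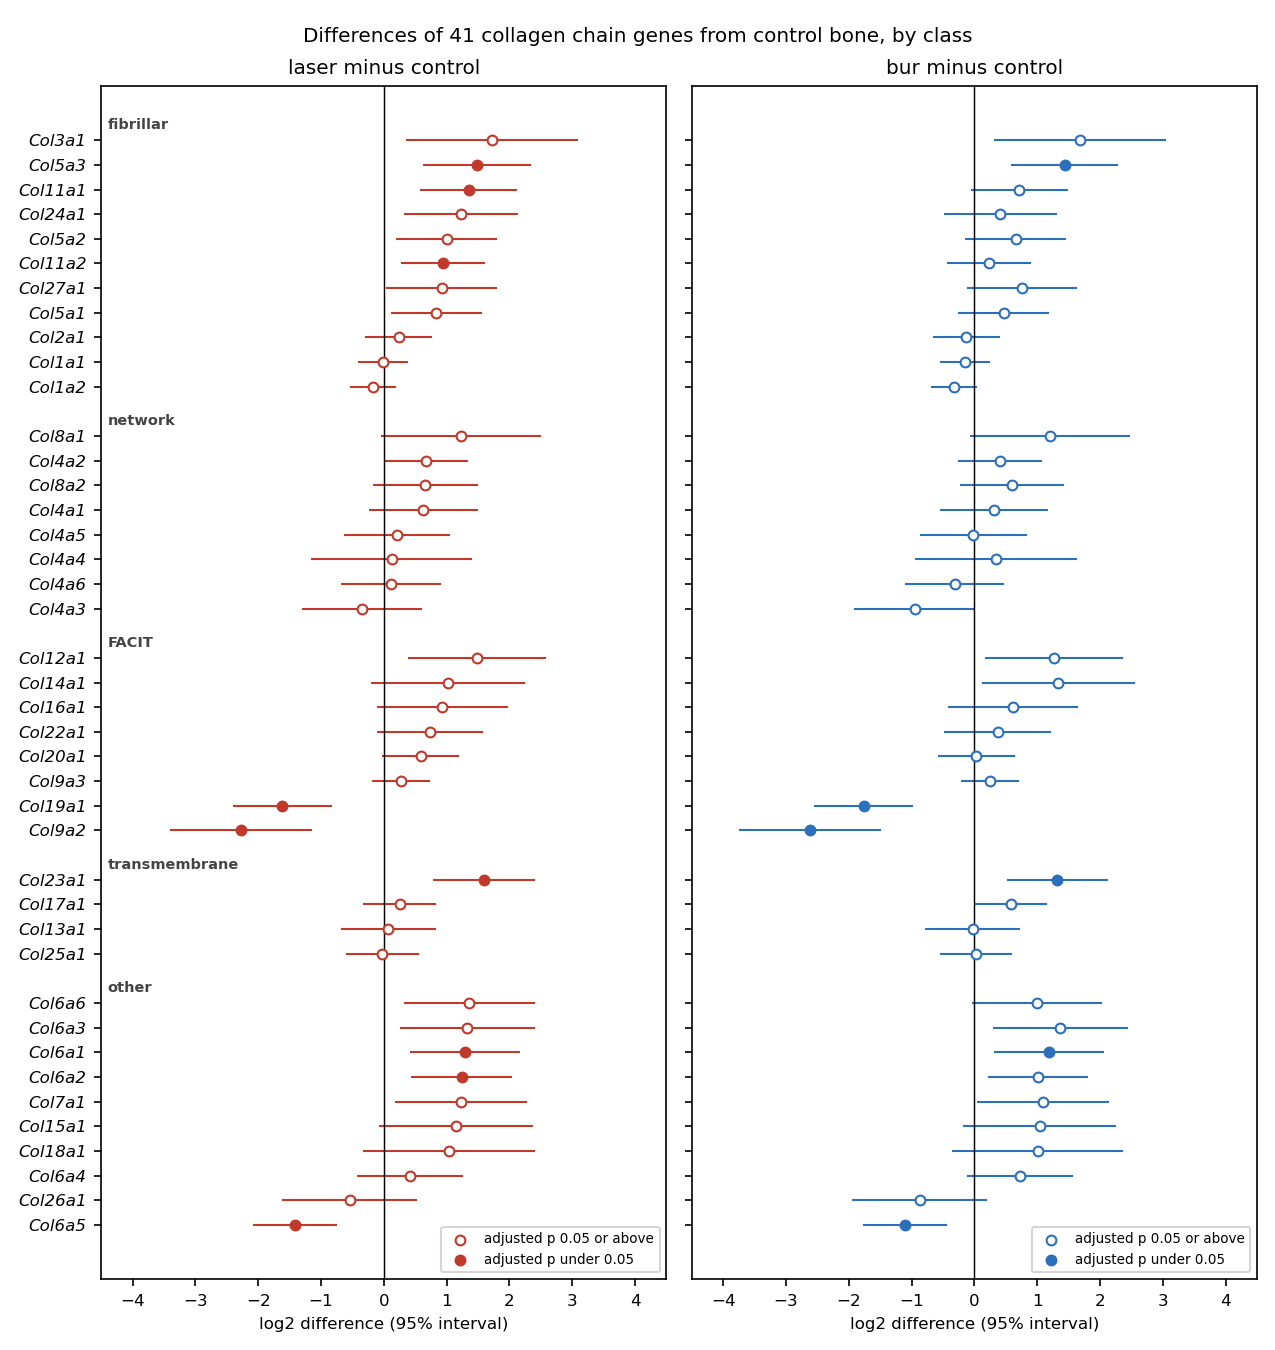
Log2 difference from control for each of the 41 tested collagen chain genes, laser on the left and bur on the right, with 95% intervals, ordered by class. Filled points passed the test at an adjusted p under 0.05: 6 higher and 3 lower in laser, 3 higher and 3 lower in bur, while most open points of the fibrillar and type VI genes lie right of 0. The higher genes include Col23a1, which was above background on no control array.

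The major bone collagen genes did not pass the test in either comparison. Col1a1, the alpha 1 chain of type I collagen, stood at 7.90, 7.46, 7.91 and 7.85 on the laser arrays, at 7.53, 7.44, 7.64 and 7.95 on the bur arrays and at 7.69, 8.23, 7.52 and 7.73 on the control arrays. The groups overlapped throughout. Its difference was -0.01 for laser minus control (95% interval -0.41 to 0.39, limma adjusted p = 0.97) and -0.15 for bur minus control (-0.55 to 0.24, adjusted p = 0.55). Col1a2, its partner chain, stood at 7.33, 6.80, 7.35 and 7.30 in laser, 6.94, 6.80, 7.12 and 7.30 in bur and 7.42, 7.57, 7.31 and 7.18 in control. Its differences were -0.18 (-0.54 to 0.19) for laser and -0.33 (-0.69 to 0.03) for bur, with limma adjusted p of 0.45 and 0.16. With the processing used here the intervals of both type I genes thus hold no rise above 0.39. The authors' deposited table has the opposite sign. It gives 0.21 in laser and 0.21 in bur for the same Col1a2 probe (limma-style adjusted p = 0.20 in each). For the other Col1a1 probe it gives 0.25 and 0.20 (limma-style adjusted p = 0.14 and 0.23), where that probe gave -0.12 and -0.34 here.

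Type III collagen, which forms thin fibrils in young wound tissue, gave the largest positive difference of any fibrillar gene but did not pass. Col3a1 stood at 5.71, 5.46, 6.44 and 5.73 in laser, 5.81, 4.97, 5.75 and 6.62 in bur and 3.13, 4.69, 5.98 and 2.65 in control. Control replicate 3 lay among the ablated arrays, and the other 3 controls lay below all of them. The difference was 1.72 (SE 0.63) for laser and 1.67 (SE 0.63) for bur, each with a limma adjusted p of 0.067. Without control replicate 3 it was 2.35 for laser (adjusted p = 0.0063) and 2.30 for bur (adjusted p = 0.0059). For the same probe the authors' deposited table gives 1.74 in laser and 1.65 in bur. Its limma-style adjusted p-values are 0.040 and 0.046, so Col3a1 passes 0.05 there in both comparisons.

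Genes of types V and XI, which are copolymerised within type I and type II fibrils, accounted for all fibrillar calls. Col5a3 stood at 1.55, 1.44, 1.43 and 1.98 in laser, 1.61, 1.11, 1.85 and 1.66 in bur and -0.06, 0.88, 0.85 and -1.18 in control. No ablated array overlapped the controls. It rose by 1.48 (SE 0.39, limma adjusted p = 0.026) in laser and by 1.44 (SE 0.39, adjusted p = 0.023) in bur. Its call held in 8 of the 12 fits that left out an array, in each comparison, with an adjusted p of up to 0.072 in laser and 0.063 in bur, both without control replicate 1.

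Col11a1, the alpha 1 chain of type XI, stood at 2.31, 3.00, 2.67 and 2.45 in laser, 2.17, 1.81, 1.36 and 2.54 in bur and 0.62, 1.84, 1.94 and 0.61 in control. All laser arrays lay above all controls, whereas bur replicates 2 and 3 lay within the control range. It rose by 1.35 (SE 0.35, limma adjusted p = 0.025) in laser, and the difference in bur was 0.72 (SE 0.35, adjusted p = 0.15). The laser call was lost without laser replicate 2 or 3 or control replicate 1 or 4, with an adjusted p of up to 0.074. Col11a2, the alpha 2 chain, stood at 3.01, 3.50, 3.53 and 3.71 in laser, 3.08, 2.34, 2.62 and 2.83 in bur and 1.72, 3.36, 2.57 and 2.32 in control. Control replicate 2 lay within the laser range. It rose by 0.94 (SE 0.31, limma adjusted p = 0.046) in laser, and the difference in bur was 0.23 (SE 0.31, adjusted p = 0.60). With the replicate number as a block the adjusted p of Col11a2 in laser was 0.060, and its call held in 3 of the 12 fits that left out an array, with adjusted p-values of 0.021 to 0.12.

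On their brightest probes the other type V genes and those of types XXIV and XXVII were positive without passing in either comparison. Col5a1 differed by 0.83 (limma adjusted p = 0.088) in laser and 0.46 (adjusted p = 0.31) in bur, and Col5a2 by 1.005 (adjusted p = 0.068) and 0.66 (adjusted p = 0.20). Col24a1, of type XXIV, stood at -2.03, -1.36, -1.22 and -1.15 in laser, -2.12, -2.85, -2.73 and -1.34 in bur and -3.69, -1.999, -2.15 and -2.83 in control. Its difference of 1.23 in laser had a limma adjusted p of 0.052, and that of 0.41 in bur one of 0.48. For the same probe the authors' deposited table gives 1.07 in laser (limma-style adjusted p = 0.028) and 0.35 in bur (adjusted p = 0.40). Col27a1 differed by 0.92 and 0.76. The other kept probe of Col5a1 gave 1.20 in laser (limma adjusted p = 0.036 over probes) and 0.89 in bur (0.083). That of Col27a1 gave 1.20 in laser (limma adjusted p = 0.064 over probes) and 1.29 in bur (0.046). For these dimmer probes the authors' deposited table has limma-style adjusted p-values of 0.013 and 0.044 for Col5a1 and 0.032 and 0.020 for Col27a1, laser first. Col2a1, the cartilage fibril gene, differed by 0.24 in laser and -0.13 in bur, with all 12 values between -5.51 and -4.35.

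**Figure D2:**
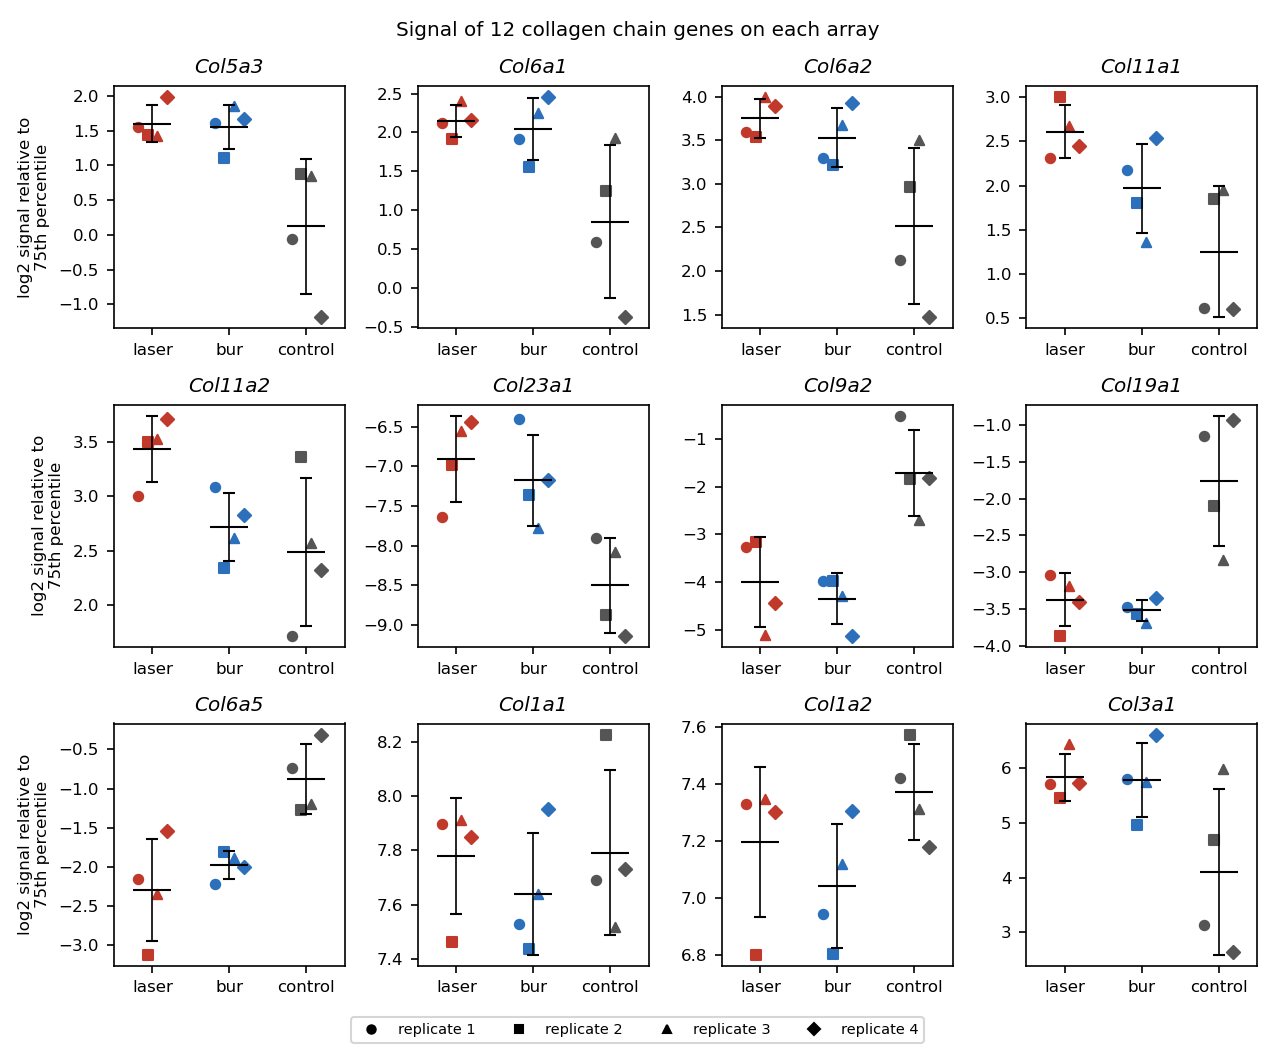
Log2 signal relative to the 75th percentile of the array for the 9 genes that passed a test and for Col1a1, Col1a2 and Col3a1, on the 4 laser, 4 bur and 4 control arrays. Symbols mark the replicate number and black bars the group mean and SD. Control values of Col3a1, Col6a1 and Col6a2 spread widely, with replicate 3 highest and replicate 4 lowest.

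Type VI chains were split. Col6a1, Col6a2 and Col6a3 form the classical type VI heterotrimer. Col6a1 stood at 2.12, 1.91, 2.40 and 2.16 in laser, 1.91, 1.55, 2.25 and 2.46 in bur and 0.59, 1.25, 1.93 and -0.38 in control. It rose by 1.30 (SE 0.40, limma adjusted p = 0.040) in laser and by 1.19 (SE 0.40, adjusted p = 0.047) in bur. Control replicate 3, at 1.93, lay within the range of both ablated groups, and the call held in only 3 of the 12 fits that left out an array in laser and 2 of 12 in bur, with adjusted p-values of up to 0.10 and 0.11.

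Col6a2 stood at 3.59, 3.54, 3.995 and 3.89 in laser, 3.30, 3.21, 3.67 and 3.93 in bur and 2.12, 2.97, 3.50 and 1.47 in control. It rose by 1.24 (SE 0.37, limma adjusted p = 0.036) in laser, where all arrays lay above all controls, and the difference in bur was 1.01 (SE 0.37, adjusted p = 0.061). The laser call held in 7 of the 12 fits that left out an array, with an adjusted p of up to 0.10. Col6a3 stood at 4.79, 4.64, 4.54 and 4.90 in laser, 4.62, 4.38, 4.83 and 5.20 in bur and 2.83, 4.11, 4.72 and 1.89 in control. Its differences of 1.33 and 1.37 were as large as those of its partners, but had limma adjusted p-values of 0.069 and 0.057. Its control SD was 1.27, against 0.16 in laser and 0.35 in bur. These values are of its brightest probe. Another kept probe gave 1.65 in laser (limma adjusted p = 0.033 over probes) and 1.51 in bur (0.037). A further probe gave 1.68 (0.038) and 1.45 (0.055), and the last 1.85 (0.053) and 1.56 (0.083). For that last probe the authors' deposited table has limma-style adjusted p-values of 0.020 in laser and 0.034 in bur.

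Col6a5, one of the alternative chains that can take the place of Col6a3, went the other way. It stood at -2.15, -3.12, -2.35 and -1.54 in laser, -2.21, -1.81, -1.89 and -2.004 in bur and -0.73, -1.27, -1.19 and -0.31 in control. No ablated array reached the lowest control. It fell by 1.41 in laser (SE 0.31, limma adjusted p = 0.015) and by 1.101 in bur (SE 0.31, adjusted p = 0.024). The laser call held in all 12 fits that left out an array and the bur call in 7, with an adjusted p of up to 0.065. The other alternative chains, Col6a6 and Col6a4, had differences of 1.36 and 0.42 in laser and 0.9999 and 0.73 in bur, none of which passed.

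The largest difference in each comparison with control was in a FACIT gene and was negative. Col9a2, a chain of the type IX collagen that coats cartilage fibrils, stood at -3.26, -3.17, -5.11 and -4.44 in laser, -3.98, -3.98, -4.29 and -5.12 in bur and -0.52, -1.85, -2.70 and -1.82 in control. No ablated array overlapped the controls. It fell by 2.27 in laser (SE 0.52, limma adjusted p = 0.017) and by 2.62 in bur (SE 0.52, adjusted p = 0.0075). The bur call held in all 12 fits that left out an array and the laser call in 11, the exception being without control replicate 1 (adjusted p = 0.051). For the same probe the authors' deposited table gives log2 changes of -1.94 in laser and -2.16 in bur, with limma-style adjusted p-values of 0.0036 and 0.0016. Of its partner chains, Col9a3 differed by 0.28 in laser and 0.24 in bur (limma adjusted p = 0.35 and 0.40) and Col9a1 was too dim to test.

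Col19a1, a FACIT-like collagen of basement membrane zones, stood at -3.03, -3.86, -3.19 and -3.41 in laser, -3.47, -3.56, -3.69 and -3.35 in bur and -1.15, -2.10, -2.84 and -0.94 in control. Again no ablated array overlapped the controls. It fell by 1.62 in laser (SE 0.36, limma adjusted p = 0.016) and by 1.76 in bur (SE 0.36, adjusted p = 0.0086). The bur call held in all 12 fits that left out an array and the laser call in 10, with an adjusted p of 0.052 without laser replicate 2 and without control replicate 1.

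The FACIT genes of dense connective tissue lay on the positive side without passing. Col12a1, found on fibrils of tendon and periosteum, stood at 2.85, 2.79, 3.17 and 2.97 in laser, 2.47, 2.26, 2.81 and 3.31 in bur and 1.67, 1.55, 2.84 and -0.25 in control. Control replicate 3 again reached the ablated range. The differences were 1.49 (SE 0.50, limma adjusted p = 0.053) in laser and 1.26 (SE 0.50, adjusted p = 0.082) in bur, and its 4 kept probes gave 1.43 to 1.62 in laser. For its brightest probe the authors' deposited table gives 1.42 in laser (limma-style adjusted p = 0.036) and 1.12 in bur (adjusted p = 0.074). Col14a1 differed by 1.02 and 1.34, Col16a1 by 0.93 and 0.61, Col22a1 by 0.74 and 0.37 and Col20a1 by 0.59 and 0.03, laser first in each, with limma adjusted p-values of 0.095 or more.

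None of the 8 tested network genes passed in either comparison. The basement membrane pair that shares a promoter region, shown above, is of this class. Col4a1 stood at 1.48, 1.30, 1.67 and 1.88 in laser, 0.41, 1.31, 1.79 and 1.57 in bur and 0.71, 1.37, 1.83 and -0.09 in control. Col4a2 stood at -3.75, -3.74, -3.10 and -3.03 in laser, -4.36, -3.47, -3.37 and -3.45 in bur and -4.33, -4.26, -3.29 and -4.42 in control. In both genes bur replicate 1 was the lowest bur array and control replicate 3 the highest control, and the differences were 0.63 and 0.67 in laser and 0.32 and 0.41 in bur, Col4a1 first. For the same Col4a2 probe the authors' deposited table gives 0.54 in laser (limma-style adjusted p = 0.030) and 0.36 in bur (adjusted p = 0.11). Col8a1, a short-chain network collagen of vessels and wounds, differed by 1.23 in laser and 1.20 in bur with a limma adjusted p of 0.14 in each and a control SD of 1.51. Col4a3, of the kidney-type basement membrane, was the most negative of the class at -0.35 and -0.95 (adjusted p = 0.59 and 0.13).

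Among the transmembrane genes Col23a1 was called, but its fold can be given only as a bound. It stood at -7.64, -6.98, -6.55 and -6.44 in laser, -6.40, -7.36, -7.77 and -7.17 in bur and -7.91, -8.88, -8.07 and -9.14 in control, and no control array was well above background. It was above background on 3 laser and 2 bur arrays, so it was kept for testing only through the ablated groups. Its calls are therefore no support for a rise. With the background correction used here the bound was 1.26-fold in laser and 1.04-fold in bur, and no test was made of these bounds. The limma adjusted p-values, 0.018 in laser and 0.025 in bur, belong to the unfloored log2 differences of 1.60 and 1.32. With another background correction, normexp, the log2 difference was 0.02 in laser (adjusted p = 0.94) and -0.29 in bur (adjusted p = 0.15). Col13a1, Col17a1 and Col25a1 differed by 0.07, 0.25 and -0.02 in laser and by -0.03, 0.58 and 0.03 in bur, and none passed.

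Genes outside the 4 classes other than type VI did not pass either. Col15a1 and Col18a1, of vascular basement membrane zones, differed by 1.15 and 1.03 in laser and 1.04 and 1.01 in bur. Col7a1, the anchoring fibril gene, differed by 1.23 in laser (limma adjusted p = 0.083) and 1.09 in bur (adjusted p = 0.11). Col26a1 differed by -0.54 and -0.87.

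Between laser and bur no collagen chain gene passed the test, nor did any of the 22718 genes (0.00% in each direction). At an unadjusted p under 0.05 there was 1 of 41 collagens, Col11a2, and 574 of all genes (2.53%). The laser mean was above the bur mean in 34 of the 41 collagens, against 54.1% of all genes, and in 11 of 11 fibrillar genes. The count over the 41 was 27 without bur replicate 2 and 29 without bur replicate 1. The fibrillar differences ran from 0.04 for Col5a3 to 0.82 for Col24a1 (95% interval -0.08 to 1.72), with 0.72 (0.05 to 1.38) for Col11a2 and 0.64 (-0.13 to 1.41) for Col11a1. For Col1a1 the difference was 0.14 (-0.26 to 0.54), so a difference of up to 0.54 is not outside the interval. The median over the 41 was 0.17, against 0.019 for all genes, and for no collagen did the laser and bur arrays fail to overlap, where 1.57% of all genes had all laser arrays higher and 0.581% all lower.

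The control arrays differed among themselves more than the ablated ones. The control SD was above the laser SD in 30 of the 41 genes and above the bur SD in 38, with a median SD of 0.42 in laser, 0.40 in bur and 0.81 in control. Control replicate 3 was the highest control in 22 genes and control replicate 4 the lowest in 22. In 24 genes control replicates 2 and 3 both lay above replicates 1 and 4. In 5 genes they both lay below, and these were Col9a2, Col19a1, Col6a5, Col4a3 and Col26a1, the 5 most negative genes in each comparison with control. Over the 11 fibrillar genes the mean level was 2.56, 2.66, 2.86 and 2.97 in laser, 2.43, 2.06, 2.29 and 2.90 in bur and 1.36, 2.42, 2.5003 and 1.30 in control.

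Markers of other cell types also differed between the control arrays. The mean of 19 marrow erythroid, neutrophil and B cell markers was 0.26, -1.08, -0.83 and -0.26 in laser, -0.55, 0.11, -1.19 and -0.26 in bur and 1.57, 0.997, 0.35 and 2.22 in control. Replicates 4 and 1 were thus highest among the controls for marrow genes and lowest for fibrillar collagens. Of these 19 markers 13 fell in laser and 12 in bur, and none rose. Across all genes 13.0% fell in laser and 16.2% in bur, and 9.26% and 9.99% rose. The mean of 12 fibroblast and periosteum markers was 1.31 to 1.67 in laser, 1.01 to 1.86 in bur and -0.64 to 1.55 in control, control replicate 3 again being the highest control, and 3 rose in laser (Prrx1, Fbn1 and Lum) and 5 in bur (these and Dpt and S100a4). Of 7 adipocyte markers 6 fell in each comparison. Those that fell in laser include Cidec, which was above background on no laser array, so its fall there is only a bound (at least 2.89-fold). The part of these marker lists in the collagen differences was not tested.

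**Figure D3:**
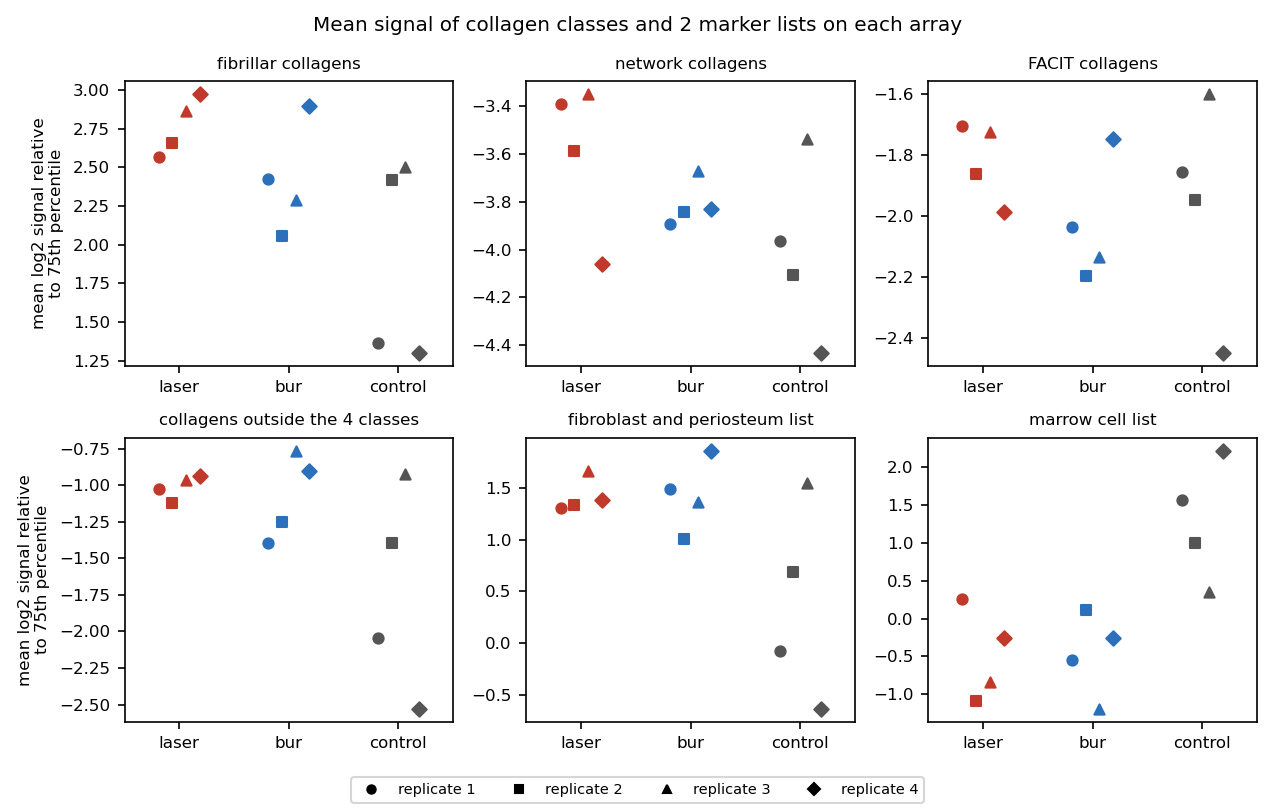
Mean log2 signal of 4 groups of collagen genes, of the fibroblast and periosteum list and of the marrow cell list on each laser, bur and control array, with symbols for replicate number. Control replicates 1 and 4 are low for fibrillar collagens (1.36 and 1.30) and high for the marrow list (1.57 and 2.22).

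The remaining marker lists were of bone, cartilage, muscle, skin and vessel cells. Beside their counts, 9.26% of all genes rose and 13.0% fell in laser, and 9.99% rose and 16.2% fell in bur. Of 11 osteoblast and osteocyte markers 7 rose in laser, among them Phex by 1.62 and Dmp1 by 1.56, and 2 rose in bur, Spp1 by 1.20 and Pdpn by 1.29. Sost, the sclerostin gene, differed by 0.02 in laser and 0.10 in bur (limma adjusted p = 0.97 and 0.85). Of 6 chondrocyte markers tested of 9 named, Acan rose by 1.75 in laser and none rose in bur. The laser share of 16.7% is a single gene. None of 11 skeletal muscle and none of 6 keratinocyte markers passed. The mean level of the muscle markers was high in replicate 1 of every group, at -2.93 in laser, -1.49 in bur and -0.74 in control, where the other 9 arrays lay between -4.92 and -4.16, and its part in the collagen differences was not tested. Of 10 endothelial markers Vwf fell in laser by 0.52, Vwf and Kdr fell in bur by 0.76 each, and none rose. The endothelial counts that fell are near the shares of all genes that fell.

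Most genes that modify and export procollagen rose in laser-ablated bone. They hydroxylate the chains, fold them in the endoplasmic reticulum and load them into transport vesicles. Of 21 tested, 16 rose and none fell in laser, and 11 rose and 1 fell in bur, with a median difference of 1.09 and 0.78. The largest rises in laser were Serpinh1, the collagen chaperone HSP47, by 1.38 in laser and 1.12 in bur, P4ha2, a prolyl hydroxylase, by 1.38 and 1.19, Fkbp10, a prolyl isomerase, by 1.36 in laser, and Plod2, the telopeptide lysyl hydroxylase, by 1.31 in laser. The gene that fell in bur was Tmem38b, an endoplasmic reticulum channel gene, by 0.55. In laser 76.2% of this list rose, against 14.6% of the chain genes and 9.26% of all genes, a description with no test of the difference. The 14.6% counts Col23a1, whose call is no support for a rise. In bur 9.99% of all genes rose and 16.2% fell.

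Of 12 genes for procollagen proteinases and crosslinking enzymes, 7 rose and 1 fell in laser, and 3 rose and 1 fell in bur. The shares of all genes were 9.26% higher and 13.0% lower in laser, and 9.99% and 16.2% in bur. Lox, a lysyl oxidase, rose by 1.63 in laser and 1.44 in bur, and Loxl2 by 1.66 and 1.65. Bmp1, the procollagen C-proteinase, rose by 1.05 in laser, while its relative Tll1 fell by 0.94 in laser and by 1.14 in bur. Of 14 small leucine-rich and fibril-associated proteins, the lumican gene Lum rose by 1.35 in laser and 1.49 in bur, Fn1 rose by 0.78 in bur, and no other passed. Of 9 collagen receptor and uptake genes, Itga11, an integrin subunit for fibrillar collagen, rose by 0.98 in laser and 0.70 in bur, and Itga1 fell by 0.64 in bur. In laser 58.3% of the proteinase and crosslinking list rose. The shares were 7.14% for the small leucine-rich list and 11.1% for the receptor list, both near that of all genes.

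Some genes were measured by several probes. Of 18 collagens with several kept probes, the probes had the same sign for 15 in laser and 14 in bur. The 2 kept probes of Col6a1 gave 1.30 and 1.12 in laser, and the 4 of Col6a3 gave 1.33 to 1.85. The dimmer Col6a1 probe did not pass (limma adjusted p = 0.071 over probes in laser, 0.075 in bur). Nor did the dimmer Col6a2 probe, at 0.81 in laser (0.13). The 3 kept probes of Col11a2, brightest first, gave 0.94, 1.49 and 0.65 in laser (limma adjusted p = 0.048, 0.047 and 0.30 over probes). In bur they gave 0.23, 1.03 and 0.013, and none passed. For Col19a1 the brightest probe gave -1.62 in laser and -1.76 in bur, and the other kept probe -0.10 and -0.20. The 2 kept probes of Col6a5 gave -1.41 and -1.14 in laser but -1.101 and -0.14 in bur. For Col4a6 the brightest probe, the one printed above, gave 0.11 and -0.31, while the other kept probe gave -1.73 in laser (limma adjusted p = 0.032 over probes) and -1.76 in bur (adjusted p = 0.025). For Col26a1 the probes gave -0.54 and 1.04 in laser. Col5a3, Col11a1, Col23a1 and Col9a2 have 1 kept probe each, so their calls had no such check.

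**Figure D4:**
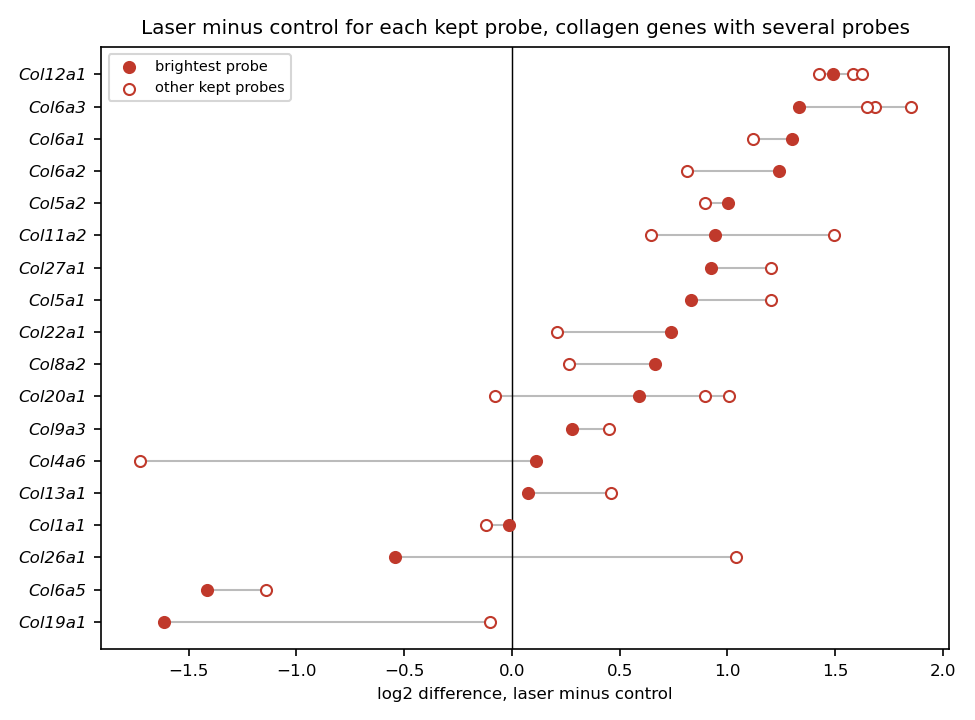
Log2 difference, laser minus control, for every kept probe of the 18 collagen chain genes that have several. Filled points are the brightest probe, which stands for the gene, and open points the others; Col4a6 (0.11 and -1.73) and Col26a1 (-0.54 and 1.04) have probes on both sides of 0.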

How the data were processed

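The authors deposited, for each array, linear spot intensity from Agilent Feature Extraction 11.0.1.1, per the submitters' processing notes, with probe positions on build rn4 per the file headers. The processed intensity is background-subtracted and not normalized between arrays, per the file headers. The authors also deposited log2 values for the arrays and comparison tables with log2 changes and adjusted p-values, and the steps between are not given in the sources used here. Groups were taken from the sample titles.

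From the processed intensity, log2 values minus the 75th percentile of the array were computed over 45598 probes, without outlier-flagged spots. No spot was saturated. Probes well above background on at least 4 of 12 arrays were kept (29775), and the brightest stood for each of 22718 gene names. The test was limma 3.58.1 under R 4.3.3 (lmFit and eBayes over all 12 arrays, two-sided), with Benjamini-Hochberg adjustment over all genes and a threshold of 0.05. Where no array of a group was above background, the difference is a bound, setting the brighter group's mean against the dimmer group's, floored per array at the lowest signal well above background. On simulated data for laser minus control with 22718 genes, 51% of genes changed by 1 and 84% of genes changed by 2 on the log2 scale were recovered. The simulation changed 200 genes and drew independent normal noise with 1 pooled SD per gene. In the data the median SD of the collagens was 0.81 in control, 0.42 in laser and 0.40 in bur. The recovery therefore need not hold for the collagens.

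The collagen genes, their classes and all gene lists were chosen with earlier results of these data known. Every collagen gene could be named, and each list could give its 4 passing genes of largest change. Alternatives were normexp background correction, quantile normalization, another percentile, other filters, the mean of probes, the deposited log2 values, fits on 2 groups, the replicate number as a block and leaving out each array. Deviations of same-numbered arrays from their group means correlated at 0.34, 0.18, 0.22 and 0.13 between laser and control. They correlated at 0.25, 0.24, 0.16 and 0.34 between laser and bur, and at 0.28, -0.05, 0.28 and 0.08 between bur and control. Arrays of unlike numbers were not compared, so these values cannot show whether the numbers mark a pairing. In every group the replicate number was also the row on the slide, so number and row cannot be told apart. Promoter windows came from a RefSeq table of GRCr8, 1 window per gene.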

Additional observations from a re-analysis of the deposited data

Results flagged for a closer look

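In 123 sets of 4 arrays, 41 genes in 3 groups, 7 had an array far from the other 3 by Dixon's test at its 95% critical value, where chance flags about 1 in 20 sets. Of these, 4 were laser replicate 2, low for Col1a1 (7.46, the others 7.85 to 7.91), Col1a2 (6.80, the others 7.30 to 7.35), Col4a6 (-2.999, the others -2.22 to -2.13) and Col25a1 (-6.14, the others -5.35 to -5.23). For Col4a2, bur replicate 1 was low at -4.36 (the others -3.47 to -3.37) and control replicate 3 was high at -3.29 (the others -4.42 to -4.26). For Col4a5, control replicate 4 was low at -6.89 (the others -6.00 to -5.82). The brightest probe of none of these genes passed a test.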

How the results depend on the processing

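No alternative called a collagen between laser and bur. The count that rose in laser, 6 in the report, was 3 without a filter on dim probes and 1 with only the 2 groups compared. The count that rose in bur, 3 in the report, was 6 with normexp and 1 with only the 2 groups compared, and the count that fell in bur, also 3, was 5 with normexp. Leaving out each array gave 0 to 20 higher and 1 to 3 lower in laser, 0 to 16 higher and 2 to 4 lower in bur, and 0 in each direction between laser and bur. The called rise of Col23a1 in bur turned negative with normexp (-0.29), and Col4a6, not called in laser in the report, was negative and called with the mean of the kept probes (-0.81, limma adjusted p = 0.032). Uncalled values turned sign too, and with normexp 27 of the 41 were positive in laser and 22 in bur, against 33 and 30 in the report. Why the counts moved was not tested. Normexp shifted the median of all genes by -0.10 in laser and -0.24 in bur. The replicate block left 5 collagens higher in laser, losing Col11a2 (0.94, adjusted p = 0.060), and changed no other collagen call. The mean of the kept probes lost both calls of Col6a5 (adjusted p = 0.067 in laser and 0.33 in bur) and of Col6a1 (0.053 and 0.059) and the laser calls of Col6a2 (0.062) and Col11a2 (0.073), and it called Col5a1 and Col6a3 higher in laser and Col4a6 lower in bur. With fits of only the 2 groups the laser call of Col19a1 was lost (adjusted p = 0.051). Quantile normalization and the deposited log2 values each called 8 higher in laser, 5 of them among the 6 of the report, and 2 in bur. Quantile normalization lost both calls of Col23a1 (adjusted p = 0.069 in laser and 0.12 in bur). Dim genes such as Col23a1, Col4a4 and Col14a1 are limited by signal over background.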

Other observations

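Outside the 44 gene names, 10 probes are described in the files as collagen chains under transcript or locus names. One described as the type XXIV alpha 1 chain, a fibrillar collagen made in bone, had means of -3.40 ± 0.50 in laser, -4.20 ± 0.62 in bur and -4.97 ± 1.05 in control (SD, n = 4 arrays each). It rose by 1.57 in laser (limma adjusted p = 0.040), and the difference in bur was 0.77 (adjusted p = 0.25). The Col24a1 probe of the report gave 1.23 and 0.41. One described as the type XXIII alpha 1 chain, above background on 7 arrays, had means of -7.26 ± 1.11 in laser, -7.07 ± 0.60 in bur and -6.52 ± 0.10 in control, a difference of -0.74 in laser and -0.55 in bur that did not pass (limma adjusted p = 0.26 and 0.39), where Col23a1 gave positive values. A probe described as type I alpha 1-like and 1 described as type XXV were above background on no array.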
